A study of Mus musculus with 4 samples.

Results

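The Wnt family genes described here are the Wnt ligands, the frizzled receptors, the R-spondins, the Sfrp and Dkk antagonists, the co-receptors Lrp5 and Lrp6, the antagonist Wif1, beta-catenin (Ctnnb1), the TCF/LEF factors and the feedback genes Axin2, Nkd1 and Nkd2. They were picked by symbol, with earlier results of these data known, and make up 52 of the 21965 genes with a usable row in both expression tables. The tables come from mouse sciatic nerve at postnatal day 7. One was made from pooled nerves of Zeb2 cKO mice and the other from pooled nerves of control mice, both on a mixed strain background. Zeb2 is a zinc finger transcription factor, and cKO stands for conditional knockout. The driver of the deletion, the deleted exons and the genotype of the controls are not given in the sources used here. The labels describe 2 samples per group, of which 1 library per group was analysed here, so no value below has a replicate and no test between the groups was possible.

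Wnt proteins are secreted lipid-modified ligands that bind frizzled receptors on the cell surface. Together with the co-receptors Lrp5 and Lrp6 this stops the destruction of beta-catenin, which enters the nucleus and acts with TCF/LEF factors on target genes such as Axin2. R-spondins strengthen the signal by sparing frizzled receptors from degradation, while Sfrp, Dkk and Wif1 proteins block it outside the cell. Other branches use frizzled, Ror or Ryk receptors without beta-catenin and act on cell polarity and calcium. In the peripheral nerve, Wnt signalling has been studied for its effects on Schwann cell lineage steps and on myelin genes.

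Values are FPKM, read fragments scaled to transcript length and to the number of mapped fragments, summed over the transcripts of a gene, so levels can be compared between genes. Ratios are Zeb2 cKO over control. A gene counts as measured at a mean of 1 FPKM or more, and as 2-fold higher or lower when log2((FPKM Zeb2 cKO + 1)/(FPKM control + 1)) is at least 1 or at most -1. Folds are plain FPKM ratios, and the intervals beside them are 95% counting intervals from estimated reads. Those intervals cover counting error only, not differences between animals, pools or libraries. The tables hold an estimated 20289098 reads for the Zeb2 cKO library and 29730959 for the control library. Zeb2 itself was at 19.5 FPKM in Zeb2 cKO nerve and 34.4 FPKM in control nerve, a ratio of 0.568, in the direction of the labels.

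Most measured Wnt family genes were higher in the Zeb2 cKO nerve. Of the 52 members, 32 were measured, and 27 of these 32 (84.4%) had a higher FPKM in Zeb2 cKO nerve than in control nerve, against 67.6% of all 12903 measured genes. At 2-fold or more, 13 of the 32 (40.6%) were higher, against 8.59% of all measured genes, and 2 (Nkd1 and Wnt4) were lower, 6.25% of the members and 6.25% of all measured genes. Wnt4, 1 of these 2, reached the mean of 1 FPKM through its control value alone. Wnt2 and Wnt11, among the 27 with a higher FPKM, reached it through their Zeb2 cKO values, with control values of 0.986 and 0.841 FPKM. The median log2 ratio of the measured members was 0.86, against 0.18 for all measured genes. With the Zeb2 cKO values multiplied by 0.865, so that the median gene has a ratio of 1, the members' median was 0.68 and 6 of the 32 were higher (18.8%, against 6.08% of all genes) and 2 lower (6.25%, against 7.42%). The split over all genes was 1109 higher and 806 lower as deposited, and 784 higher and 958 lower after this rescaling. The members that stayed 2-fold higher after rescaling, on the pseudocount scale, were Wnt5a, Fzd2, Fzd6, Lrp5, Sfrp1 and Sfrp4. Those that did not were Wnt6, Fzd1, Fzd7, Fzd8, Rspo1, Sfrp2 and Axin2. Of the latter, Axin2, Rspo1 and Wnt6 had plain rescaled folds of 2.34, 2.05 and 2.01. The plain rescaled folds of Fzd1, Fzd7, Fzd8 and Sfrp2 were 1.94 to 1.98. The plain folds of the 13 higher members ran from 2.24 to 3.35, with the lower end set by the 2-fold limit. All bulk values here share a limit: more cells of a type and more RNA per cell cannot be told apart.

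**Figure D1:**
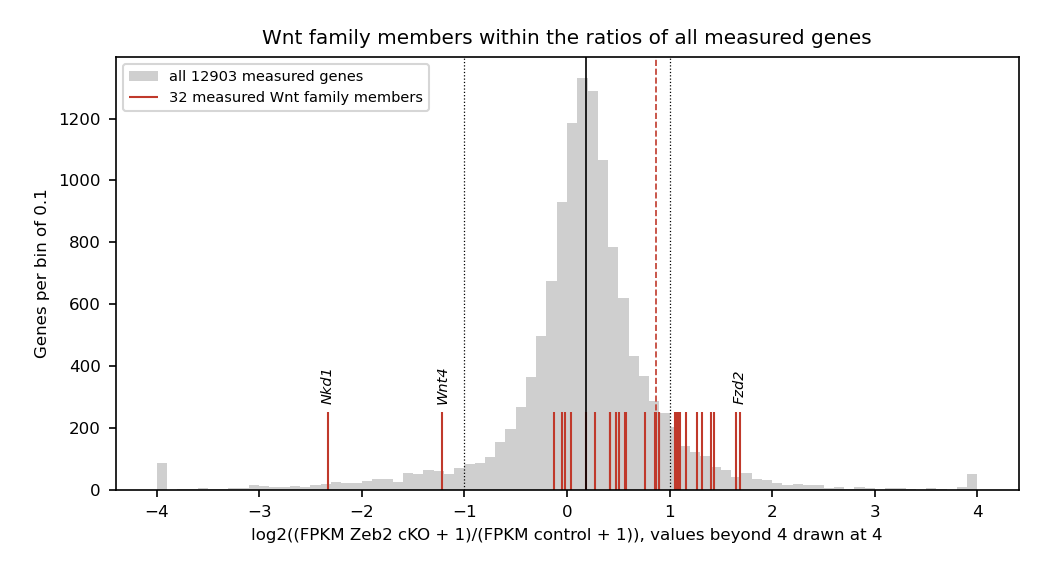
Histogram of the log2 ratio of Zeb2 cKO over control with a pseudocount of 1 FPKM for 12903 measured genes (grey, bins of 0.1), with the 32 measured Wnt family members as red ticks whose height has no meaning. The solid line is the median of all genes (0.18), the dashed line that of the members (0.86), and dotted lines mark 2-fold. Of the 5 members below 0, only Nkd1 and Wnt4 lie past the lower 2-fold line.

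Wnt6 was the leading ligand transcript of the nerve in both libraries. Wnt6 (chromosome 1, 74818466 to 74831893, mm9) was at 32.0 FPKM in Zeb2 cKO nerve and 13.8 FPKM in control nerve, 2.32-fold higher (2.15 to 2.52). It made up 57.2% of the summed ligand FPKM in Zeb2 cKO nerve and 54.2% in control nerve, so its place among the ligands was close to the same in the 2 libraries. Wnt5a, the best known ligand of the branches without beta-catenin (chromosome 14, 29318659 to 29338620), was at 6.88 FPKM in Zeb2 cKO nerve and 2.17 FPKM in control nerve, 3.18-fold higher (2.78 to 3.63). These were the 2 ligands counted as 2-fold higher among 8 measured ones (25%, against 8.59% of all genes).

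Wnt4 was the measured ligand that went the other way. It was at 0.344 FPKM in Zeb2 cKO nerve and 2.12 FPKM in control nerve (chromosome 4, 136833550 to 136852694), 6.17-fold lower with an interval of 3.12 to 13.8, since its Zeb2 cKO value rests on about 9.2 estimated reads. Its share of the summed ligand FPKM was 0.615% in Zeb2 cKO nerve and 8.36% in control nerve.

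The other measured ligands were higher in Zeb2 cKO nerve but within 2-fold on the pseudocount scale. Wnt9a was at 4.06 FPKM in Zeb2 cKO nerve and 1.77 FPKM in control nerve, a plain fold of 2.29. Wnt5b was at 2.92 FPKM in Zeb2 cKO nerve and 1.32 FPKM in control nerve, a plain fold of 2.22. The span of the Wnt5b locus, introns included, overlaps that of Fbxl14, and whether their exons overlap was not checked. Wnt2b was at 2.12 FPKM in Zeb2 cKO nerve against 1.23 FPKM in control nerve (1.72-fold). Wnt2, at 1.66 against 0.986 FPKM, and Wnt11, at 1.23 against 0.841 FPKM, differed by 1.68-fold and 1.46-fold.

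A further group of ligands lay above 1 FPKM in Zeb2 cKO nerve and under it in control nerve, with a mean under the filter. Wnt7b was at 1.78 FPKM in Zeb2 cKO nerve and 0.108 FPKM in control nerve, about 147 and 13.1 estimated reads, a plain ratio of 16.4 (9.31 to 31.4) and a log2 ratio of 1.32. This was the largest plain ratio of any named member. All 3 of its RefSeq transcripts had more FPKM in Zeb2 cKO nerve, led by NM_009528 at 0.991 FPKM against 0.0376 FPKM in control nerve. Wnt10a was at 1.51 FPKM in Zeb2 cKO nerve and 0.330 FPKM in control nerve (4.56-fold, 2.82 to 7.64). Wnt10b was at 1.28 FPKM in Zeb2 cKO nerve and 0.360 FPKM in control nerve (3.54-fold, 2.26 to 5.69). With means under 1 FPKM, these 3 genes are not among the measured members.

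Several of these ligand genes are neighbours in the genome. Wnt10a lies 6.70 kb from Wnt6, and both were higher in Zeb2 cKO nerve. Wnt10b lies 11.7 kb from Wnt1, which was at 0.0241 FPKM in Zeb2 cKO nerve and 0.0294 FPKM in control nerve, at most 3 estimated reads in each. Wnt9a lies 16.2 kb from Wnt3a, listed at 0 in both libraries, and Wnt9b lies 24.4 kb from Wnt3, both at or under 0.0596 FPKM. In 3 of these 4 pairs, then, at most 1 gene was expressed above 1 FPKM in either library.

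Summed over all 19 ligand genes, the nerve had 55.97 FPKM of Wnt transcripts in Zeb2 cKO nerve and 25.4 FPKM in control nerve, a ratio of 2.20. Without Wnt6 the sums were 24.0 FPKM in Zeb2 cKO nerve and 11.6 FPKM in control nerve, a ratio of 2.06.

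**Figure D2:**
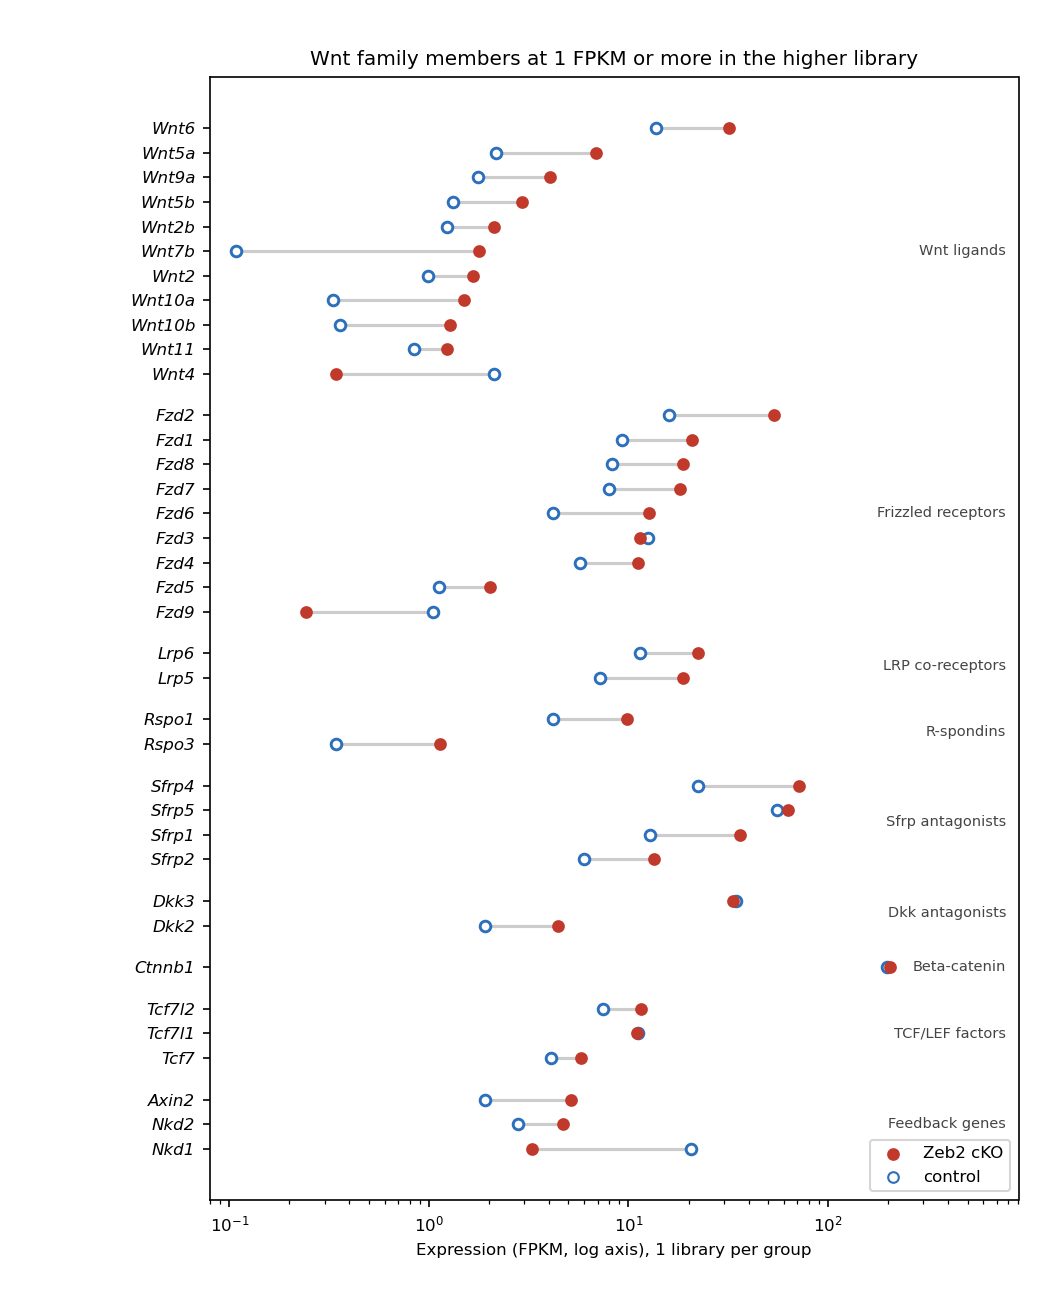
FPKM on a log axis of the 37 members that reached 1 FPKM in the higher library, by role, with Zeb2 cKO nerve as filled red points and control nerve as open blue points (1 library each, so no error bars). Red points lie to the right of blue ones for most receptors, ligands and Sfrp genes, while Nkd1, Wnt4 and Fzd9 show the opposite and Ctnnb1, Dkk3, Tcf7l1 and Fzd3 nearly coincide.

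Among the member families, the frizzled receptors had the most genes at 2-fold. Of 8 measured ones, 5 were higher (62.5%, against 8.59% of all genes) and 0 lower (against 6.25%). After rescaling to the median gene 2 of the 8 were higher (25%, against 6.08%), the same count as among the Sfrp genes. Fzd2 (chromosome 11, 102465745 to 102469372) was the most abundant frizzled transcript, at 53.4 FPKM in Zeb2 cKO nerve and 15.9 FPKM in control nerve, 3.35-fold higher (3.18 to 3.53). It made up 35.7% of the summed frizzled FPKM in Zeb2 cKO nerve and 23.8% in control nerve. Fzd6, a receptor with a role in tissue polarity, was at 12.7 FPKM in Zeb2 cKO nerve and 4.19 FPKM in control nerve, 3.04-fold higher (2.75 to 3.35).

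Fzd1, Fzd7 and Fzd8 moved by nearly the same factor. Fzd1 was at 20.8 FPKM in Zeb2 cKO nerve and 9.30 FPKM in control nerve (2.24-fold). Fzd7 was at 18.2 FPKM against 7.94 FPKM in control nerve (2.29-fold), and Fzd8 at 18.7 FPKM against 8.26 FPKM in control nerve (2.26-fold). Their counting intervals overlap (2.10 to 2.40, 2.14 to 2.46 and 2.08 to 2.45), so these 3 ratios are not separated even by counting error. None of the 3 was 2-fold higher after rescaling to the median gene.

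The remaining frizzled genes differed less or were low. Fzd4, which also binds Norrin in blood vessels, was at 11.1 FPKM in Zeb2 cKO nerve and 5.70 FPKM in control nerve (1.96-fold). Fzd5 was at 2.01 FPKM in Zeb2 cKO nerve and 1.13 FPKM in control nerve (1.79-fold). Fzd3, which like Fzd6 acts in tissue polarity, was at 11.4 FPKM in Zeb2 cKO nerve and 12.5 FPKM in control nerve, a ratio of 0.906, so Fzd3 and Fzd6 differed in direction in these libraries. Its share of the frizzled sum was 7.61% in Zeb2 cKO nerve and 18.7% in control nerve. Fzd9 was at 0.243 FPKM in Zeb2 cKO nerve and 1.05 FPKM in control nerve, a ratio of 0.231 (0.116 to 0.423) on about 12.4 and 78.9 estimated reads, with a mean under the filter.

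The 10 frizzled genes summed to 149 FPKM in Zeb2 cKO nerve and 66.9 FPKM in control nerve, a ratio of 2.23, and a ratio of 1.88 without Fzd2. The LRP co-receptors were higher too. Lrp5 was at 18.7 FPKM in Zeb2 cKO nerve and 7.19 FPKM in control nerve (chromosome 19, 3584825 to 3686564), 2.60-fold higher (2.43 to 2.78). Lrp6 was at 22.3 FPKM in Zeb2 cKO nerve and 11.5 FPKM in control nerve, a plain ratio of 1.94 that stayed within 2-fold.

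R-spondins were low in both libraries except for Rspo1. Rspo1 was at 9.87 FPKM in Zeb2 cKO nerve and 4.17 FPKM in control nerve (chromosome 4, 124663674 to 124686343), 2.37-fold higher (2.03 to 2.76). Rspo3 was at 1.14 FPKM in Zeb2 cKO nerve and 0.342 FPKM in control nerve, a ratio of 3.33 (2.12 to 5.34) with a mean under the filter. Rspo4 was at 0.395 FPKM in Zeb2 cKO nerve and 0.0670 FPKM in control nerve, and Rspo2 at 0.158 FPKM against 0.0367 FPKM in control nerve. Rspo1 held 85.4% of the summed R-spondin FPKM in Zeb2 cKO nerve and 90.3% in control nerve. The family sum was 11.6 FPKM in Zeb2 cKO nerve and 4.62 FPKM in control nerve, a ratio of 2.51 (2.18 to 2.89).

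**Figure D3:**
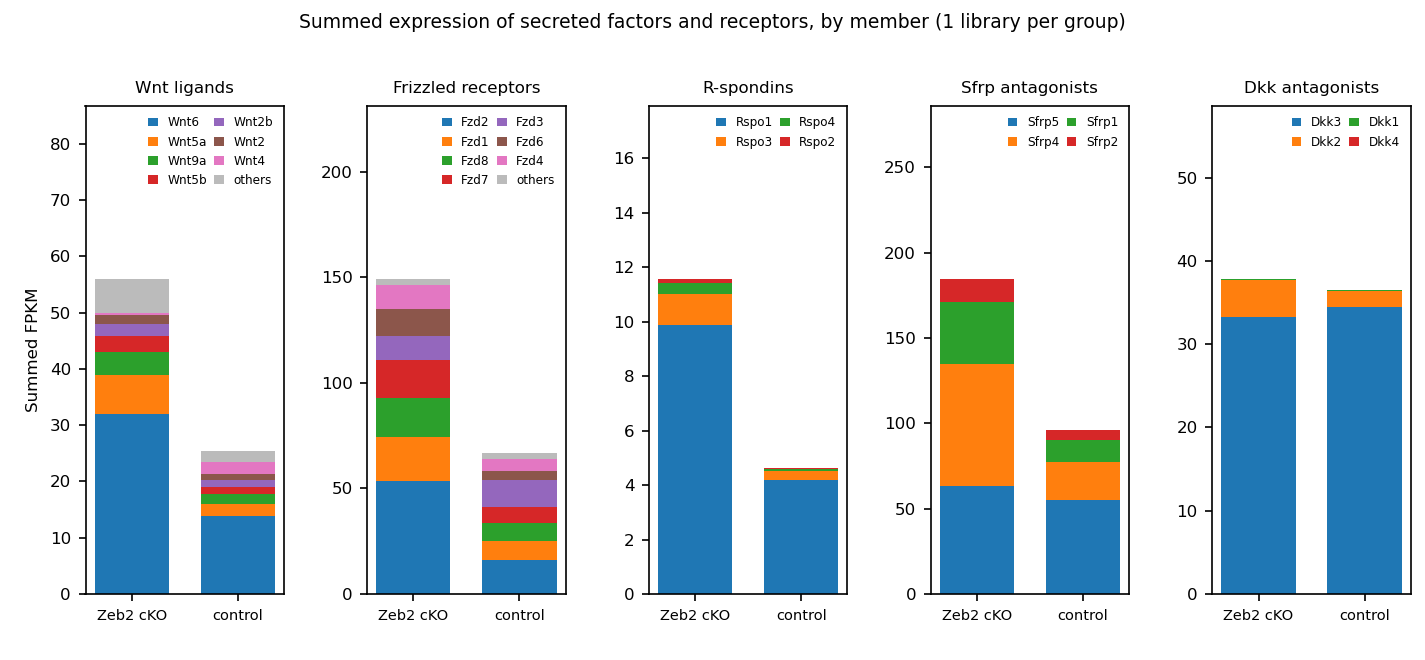
Summed FPKM of 5 secreted or receptor families in Zeb2 cKO nerve (left bar of each panel) and control nerve (right bar), stacked by member, with the members below the 7 most abundant joined as others. Each panel has its own axis from 0. The ligand and frizzled sums reach 55.97 and 149 FPKM in Zeb2 cKO nerve against 25.4 and 66.9 FPKM in control nerve, and the Dkk sums are close, at 37.8 and 36.5 FPKM.

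Secreted antagonists were more abundant than the ligands in both libraries, and their members did not move together. Sfrp proteins bind Wnts through a domain like that of frizzled receptors. Sfrp4 (chromosome 13, 19715044 to 19724692) was at 71.8 FPKM in Zeb2 cKO nerve and 22.2 FPKM in control nerve, 3.24-fold higher (3.04 to 3.45). Sfrp1 was at 36.3 FPKM in Zeb2 cKO nerve and 12.8 FPKM in control nerve, 2.83-fold higher (2.68 to 2.99). Sfrp2 was at 13.5 FPKM in Zeb2 cKO nerve and 6.004 FPKM in control nerve, 2.25-fold higher (1.98 to 2.54).

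Sfrp5 differed from these in level and in ratio. It was at 63.0 FPKM in Zeb2 cKO nerve and 55.3 FPKM in control nerve, a ratio of 1.14 (1.08 to 1.196) that falls below 1 after rescaling to the median gene. The order of the 2 leading Sfrp genes therefore differed, with Sfrp4 first in Zeb2 cKO nerve (38.9% of the family sum, against 34.1% for Sfrp5) and Sfrp5 first in control nerve (57.4%, against 23.0% for Sfrp4). Without Sfrp5 the family summed to 122 FPKM in Zeb2 cKO nerve and 41.0 FPKM in control nerve, a ratio of 2.97. With Sfrp5 the ratio was 1.92.

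Among the Dkk genes, Dkk2, which binds the LRP co-receptors, was at 4.43 FPKM in Zeb2 cKO nerve and 1.92 FPKM in control nerve, a plain ratio of 2.31 that stayed within 2-fold on the pseudocount scale. Dkk3, a divergent member of the family, was at 33.3 FPKM in Zeb2 cKO nerve and 34.5 FPKM in control nerve, a ratio of 0.965 whose counting interval (0.919 to 1.01) includes 1. Dkk1 was at 0.154 FPKM in Zeb2 cKO nerve and 0.122 FPKM in control nerve, and Wif1 at 0.877 FPKM in Zeb2 cKO nerve and 0.421 FPKM in control nerve. Summed over the Sfrp and Dkk genes and Wif1, the antagonists reached 223 FPKM in Zeb2 cKO nerve and 133 FPKM in control nerve. That is 3.99 times the ligand sum in Zeb2 cKO nerve and 5.25 times the ligand sum in control nerve. Both figures depend on the symbols taken in. The sum counts Dkk3 and leaves out 2 secreted antagonists described below. These are Sostdc1 (212 FPKM in Zeb2 cKO nerve and 68.2 FPKM in control nerve) and Frzb (0.657 FPKM and 11.4 FPKM).

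The signal carriers inside the cell differed little. Ctnnb1, beta-catenin, was the most abundant member, at 203 FPKM in Zeb2 cKO nerve and 197 FPKM in control nerve, a ratio of 1.03 that falls below 1 after rescaling to the median gene. Of its 2 RefSeq transcripts, NM_007614 was at 67.4 FPKM in Zeb2 cKO nerve and 47.7 FPKM in control nerve. The other, NM_001165902, was at 136 FPKM in Zeb2 cKO nerve and 149 FPKM in control nerve. The 2 transcripts thus differed in opposite directions, and the division of reads between transcripts of a gene is an estimate by Cufflinks.

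The 3 measured TCF/LEF factors stayed within 2-fold. Tcf7l2 was at 11.6 FPKM in Zeb2 cKO nerve and 7.47 FPKM in control nerve (1.547-fold), summed over 8 transcripts. Tcf7l1, often a repressor of Wnt targets, was at 11.03 FPKM in Zeb2 cKO nerve and 11.2 FPKM in control nerve, with an interval of the ratio (0.899 to 1.09) that includes 1. Tcf7 was at 5.78 FPKM in Zeb2 cKO nerve and 4.08 FPKM in control nerve (1.42-fold). Lef1, which is also a target of the pathway, was low, at 0.978 FPKM in Zeb2 cKO nerve and 0.256 FPKM in control nerve, a plain ratio of 3.82 (2.31 to 6.52) with a mean under the filter.

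The feedback genes of the pathway differed in direction. Axin2, a scaffold of the complex that destroys beta-catenin and a standard readout of beta-catenin activity (chromosome 11, 108781663 to 108812095), was at 5.15 FPKM in Zeb2 cKO nerve and 1.91 FPKM in control nerve, 2.70-fold higher (2.34 to 3.13). After rescaling to the median gene its log2 ratio was 0.91, short of 2-fold on the pseudocount scale, while its plain fold was 2.34. Nkd1, an inhibitor that binds Dishevelled (chromosome 8, 91045243 to 91118786), was at 3.28 FPKM in Zeb2 cKO nerve and 20.5 FPKM in control nerve, 6.26-fold lower (5.60 to 7.02). Its relative Nkd2 was at 4.68 FPKM in Zeb2 cKO nerve and 2.81 FPKM in control nerve, a ratio of 1.67. Nkd1 made up 25.0% of the summed FPKM of these 3 genes in Zeb2 cKO nerve, against 81.3% in control nerve. Axin2 made up 39.3% of it in Zeb2 cKO nerve, against 7.54% in control nerve. Nkd1 had the lowest log2 ratio of all measured members (-2.33) and stayed 2-fold lower under every pseudocount, scaling and row choice tried.

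**Figure D4:**
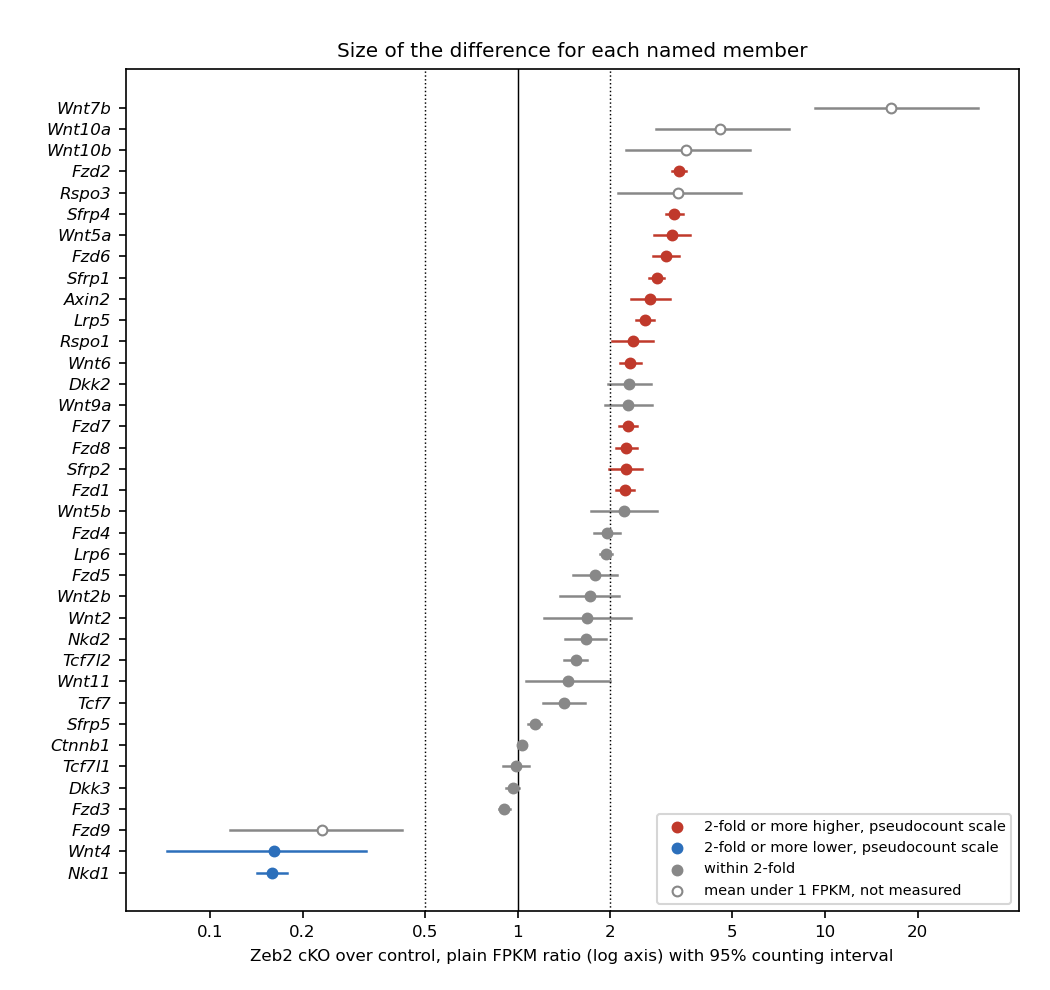
Plain FPKM ratio of Zeb2 cKO over control on a log axis with its 95% counting interval for the 37 named members, in order of size. Red marks members 2-fold or more higher on the pseudocount scale, blue those lower, grey those within 2-fold and open symbols those with a mean under 1 FPKM; the upper end is Wnt7b (16.4), the lower end Nkd1 and Wnt4 (0.160 and 0.162), and dotted lines mark 0.5 and 2.

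The remaining members were low. Of the 52, 15 stayed under 1 FPKM in both libraries: Wnt1, Wnt3, Wnt3a, Wnt7a, Wnt8a, Wnt8b, Wnt9b, Wnt16, Fzd10, Rspo2, Rspo4, Dkk1, Dkk4, Wif1 and Lef1. Wnt3a, Wnt8a and Dkk4 were listed at 0 in both libraries, and 3 estimated reads would correspond to 0.0450 to 0.0942 FPKM for them in Zeb2 cKO nerve and to 0.0306 to 0.0642 FPKM in control nerve. Fzd10 was at 0.770 FPKM in Zeb2 cKO nerve and 0.905 FPKM in control nerve. Wnt16 was at 0.111 FPKM in Zeb2 cKO nerve and 0.327 FPKM in control nerve, on about 4.5 and 19.4 estimated reads.

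Promoter sequence is shown for the leading ligand, the standard readout gene and the 2-fold higher member that holds a TCF/LEF core, to set the letters beside these values. The windows are the 250 bases before the RefSeq start of the gene on GRCm38.p6, a newer build than the mm9 of the tables. Each is on the plus strand and written 5′ to 3′, and the capitals in the Fzd7 window mark the TCF/LEF core on the opposite strand.
Wnt6, chr1:74771642-74771891: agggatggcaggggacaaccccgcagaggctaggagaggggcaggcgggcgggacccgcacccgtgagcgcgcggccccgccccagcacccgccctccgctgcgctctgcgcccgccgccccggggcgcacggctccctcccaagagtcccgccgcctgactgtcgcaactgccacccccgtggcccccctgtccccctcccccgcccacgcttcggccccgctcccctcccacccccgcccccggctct
Axin2, chr11:108920099-108920348: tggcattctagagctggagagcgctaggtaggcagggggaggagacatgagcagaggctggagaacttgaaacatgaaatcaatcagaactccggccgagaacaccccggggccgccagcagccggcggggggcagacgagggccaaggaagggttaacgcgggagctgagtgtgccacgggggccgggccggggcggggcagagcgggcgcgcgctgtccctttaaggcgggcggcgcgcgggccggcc
Fzd7, chr1:59481897-59482146: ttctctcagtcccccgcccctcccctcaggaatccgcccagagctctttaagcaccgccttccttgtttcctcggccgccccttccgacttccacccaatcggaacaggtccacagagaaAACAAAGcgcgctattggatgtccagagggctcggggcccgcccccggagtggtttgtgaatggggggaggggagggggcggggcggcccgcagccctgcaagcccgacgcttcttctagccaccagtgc

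The TCF/LEF core was searched on both strands as the word CTTTGAA, the word CTTTGAT, the word CTTTGTA and the word CTTTGTT. The E-box type that Zeb2 binds was searched on both strands as the word CACCTG. The letters of the 2 motifs do not overlap each other. Of 32851 RefSeq promoter windows of this length, 14.8% hold a TCF/LEF core and 17.2% hold CACCTG. Promoter entries matched 36 of the 52 members, and for 34 of them a window lay at the start of a transcript that carried at least 1% of the gene's FPKM in either library, 37 windows in all. Of these windows, 3 hold a TCF/LEF core (8.11%, in Fzd7, Tcf7l2 and Dkk1). CACCTG is held by 8 (21.6%, in Wnt4, Wnt2b, Wnt5b, Sfrp5, Fzd5, Wnt10b, Wnt9b and Wif1). Over all 45 windows of the 36 members, without that limit, 6 hold a TCF/LEF core (13.3%) and 11 hold CACCTG (24.4%). These shares say nothing about binding. Among the 6 members that were 2-fold higher and have such a window, 1 holds the TCF/LEF core and 0 hold CACCTG. Wnt10b, Wnt9b and Wif1, which hold CACCTG, had means under the filter, with plain ratios of 3.54, 2.33 (0.581 to 10.8) and 2.08. Fzd5, also with CACCTG, was measured and within 2-fold, and its match is not shown. The CACCTG matches of 4 other measured members are shown with up to 10 bases on each side, in capitals, as CACCTG or its reverse complement CAGGTG.
Wnt4, chr4:137277610-137277634, plus strand: gcgcggcgccCACCTGccgccccga
Wnt2b, chr3:104961902-104961927, minus strand: gtggccagagCAGGTGgggacgcggc
Wnt5b, chr6:119544429-119544454, minus strand: gcgcggaaggCAGGTGcgggggccgg
Sfrp5, chr19:42202466-42202491, minus strand: cagagataagCAGGTGaagtgagtga
Of these 4 genes, Wnt4 was lower in Zeb2 cKO nerve and the other 3 were within 2-fold. The window given for Nkd1 also holds CACCTG, but lies at the start of NM_001163660, which carried 0.000661% of the Nkd1 FPKM in Zeb2 cKO nerve and 0.477% in control nerve, so it is not at the start of the transcript behind the values above. The Wnt4 and Wnt2b windows overlap annotated GENCODE exons over 146 and 212 of their 250 bases.

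Other genes of the pathway were described from lists drawn up by role. Of 7 genes of Wnt secretion and processing, 6 were measured, 3 were 2-fold higher (50%, against 8.59% of all genes) and 0 lower (against 6.25%), with a median log2 ratio of 1.01. Wls, which carries Wnt proteins to the cell surface, was at 48.5 FPKM in Zeb2 cKO nerve and 21.5 FPKM in control nerve (2.26-fold). Trabd2b, a protease that inactivates Wnt proteins (Gm12824 in the tables), was at 6.16 FPKM in Zeb2 cKO nerve and 1.62 FPKM in control nerve (3.82-fold), and the glypican Gpc6 at 19.6 FPKM in Zeb2 cKO nerve and 6.43 FPKM in control nerve (3.06-fold).

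The other receptors and surface regulators held the widest range of ratios. Of 18, 15 were measured, 7 were 2-fold higher (46.7%, against 8.59% of all genes) and 2 lower (13.3%, against 6.25%), with a median of 0.81. Apcdd1, a membrane-bound Wnt inhibitor, was at 49.2 FPKM in Zeb2 cKO nerve and 6.004 FPKM in control nerve, 8.20-fold higher (7.51 to 8.96). Sostdc1, a secreted antagonist of Wnt and BMP signals, was at 212 FPKM in Zeb2 cKO nerve and 68.2 FPKM in control nerve (3.10-fold). Frzb, a secreted frizzled-related antagonist outside the Sfrp symbols, was at 0.657 FPKM in Zeb2 cKO nerve and 11.4 FPKM in control nerve, 17.4-fold lower (12.97 to 23.8). Frzb thus went the opposite way to Sfrp1, Sfrp2 and Sfrp4.

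Of the receptors that act without beta-catenin, Ptk7, Ror1 and Ror2 were 2-fold or more higher and Ryk was lower within 2-fold. Ptk7 was at 22.4 FPKM in Zeb2 cKO nerve and 5.39 FPKM in control nerve (4.16-fold). Ror2 was at 8.16 FPKM against 2.38 FPKM in control nerve (3.43-fold), and Ror1 at 5.52 FPKM against 1.69 FPKM in control nerve (3.26-fold). Ryk was at 21.9 FPKM in Zeb2 cKO nerve and 30.5 FPKM in control nerve, a ratio of 0.717. Lgr5, a receptor for R-spondins, was at 12.4 FPKM in Zeb2 cKO nerve and 4.77 FPKM in control nerve (2.61-fold). Its relative Lgr4 was at 32.4 FPKM against 18.1 FPKM in control nerve (1.80-fold). Lgr6, another relative, was at 0.787 FPKM against 2.07 FPKM in control nerve. That is a plain 2.63-fold lower (2.01 to 3.47), within 2-fold on the pseudocount scale. Lrp4 was at 13.7 FPKM in Zeb2 cKO nerve and 6.14 FPKM in control nerve (2.23-fold). Kremen1, a receptor for Dkk proteins, was at 9.56 FPKM in Zeb2 cKO nerve and 22.05 FPKM in control nerve, 2.31-fold lower.

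The machinery inside the cell stayed near the level of all genes. Of 20 cytoplasmic genes, all measured, 2 were 2-fold higher (10%, against 8.59% of all genes) and 0 lower (against 6.25%), with a median of 0.19. These were Apc2, at 4.77 FPKM in Zeb2 cKO nerve and 1.36 FPKM in control nerve (3.51-fold), and Dact1, which binds Dishevelled, at 38.3 FPKM in Zeb2 cKO nerve and 13.8 FPKM in control nerve (2.77-fold). Dact2 had a log2 ratio of 0.93. Of 13 nuclear cofactors and repressors, 0 were 2-fold apart in either direction (against 8.59% of all genes higher and 6.25% lower). Their median was 0.30, and the largest log2 ratios were those of Pygo1 (0.91), Tle3 (0.59) and Tle4 (0.53).

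In the planar cell polarity list, 9 of 10 genes were measured, 1 was 2-fold higher (11.1%, against 8.59% of all genes) and 0 lower (against 6.25%), with a median of 0.54. That gene was Celsr1, an atypical cadherin, at 7.85 FPKM in Zeb2 cKO nerve and 2.44 FPKM in control nerve (3.22-fold). Daam2 and Celsr2 had log2 ratios of 0.91 and -0.89, and Celsr2 was 2-fold lower after rescaling. In the calcium and noncanonical list, 2 of 14 were 2-fold higher (14.3%, against 8.59% of all genes) and 3 lower (21.4%, against 6.25%), with a median of 0.16. Camk2b, a calcium-dependent kinase subunit, was at 1.41 FPKM in Zeb2 cKO nerve and 16.3 FPKM in control nerve, 11.5-fold lower. Camk2a was at 1.98 FPKM against 6.28 FPKM in control nerve (3.18-fold lower), and Prkca, a protein kinase C, at 3.61 FPKM against 9.07 FPKM in control nerve (2.52-fold lower). Camk2d was at 47.4 FPKM against 20.5 FPKM in control nerve (2.31-fold higher), and Nfatc4, a calcium-regulated transcription factor, at 9.54 FPKM against 3.71 FPKM in control nerve (2.57-fold higher). The Camk2 subunits thus differed in direction. With the median gene set to a ratio of 1, this list held 3 genes 2-fold lower (21.4%, against 7.42% of all genes) and 0 higher (against 6.08%).

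Genes often used as readouts of beta-catenin and TCF activity had higher FPKM in Zeb2 cKO nerve for 14 of 15 measured genes, against 67.6% of all measured genes. The list of 22 includes 7 members given above. At 2-fold, 7 were higher (against 8.59% of all genes) and 1, Nkd1, was lower (against 6.25%), which is 46.7% and 6.67% of the 15, with a median of 0.69. After rescaling, 4 were 2-fold higher (26.7%, against 6.08% of all genes) and 1 lower (6.67%, against 7.42%). Besides Axin2, Lgr5 and Apcdd1, the higher ones were Ccnd1, cyclin D1, at 144 FPKM in Zeb2 cKO nerve and 70.8 FPKM in control nerve (2.04-fold), Cd44, a hyaluronan receptor, at 33.7 FPKM in Zeb2 cKO nerve and 11.1 FPKM in control nerve (3.05-fold), the transcription factor Twist1 at 10.01 FPKM in Zeb2 cKO nerve and 4.16 FPKM in control nerve (2.41-fold) and the proteoglycan Vcan at 34.4 FPKM in Zeb2 cKO nerve and 9.84 FPKM in control nerve (3.49-fold). The established targets Sp5, Notum and Rnf43 were at most at 0.227 FPKM in either library. Many of these genes respond to other pathways as well.

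**Figure D5:**
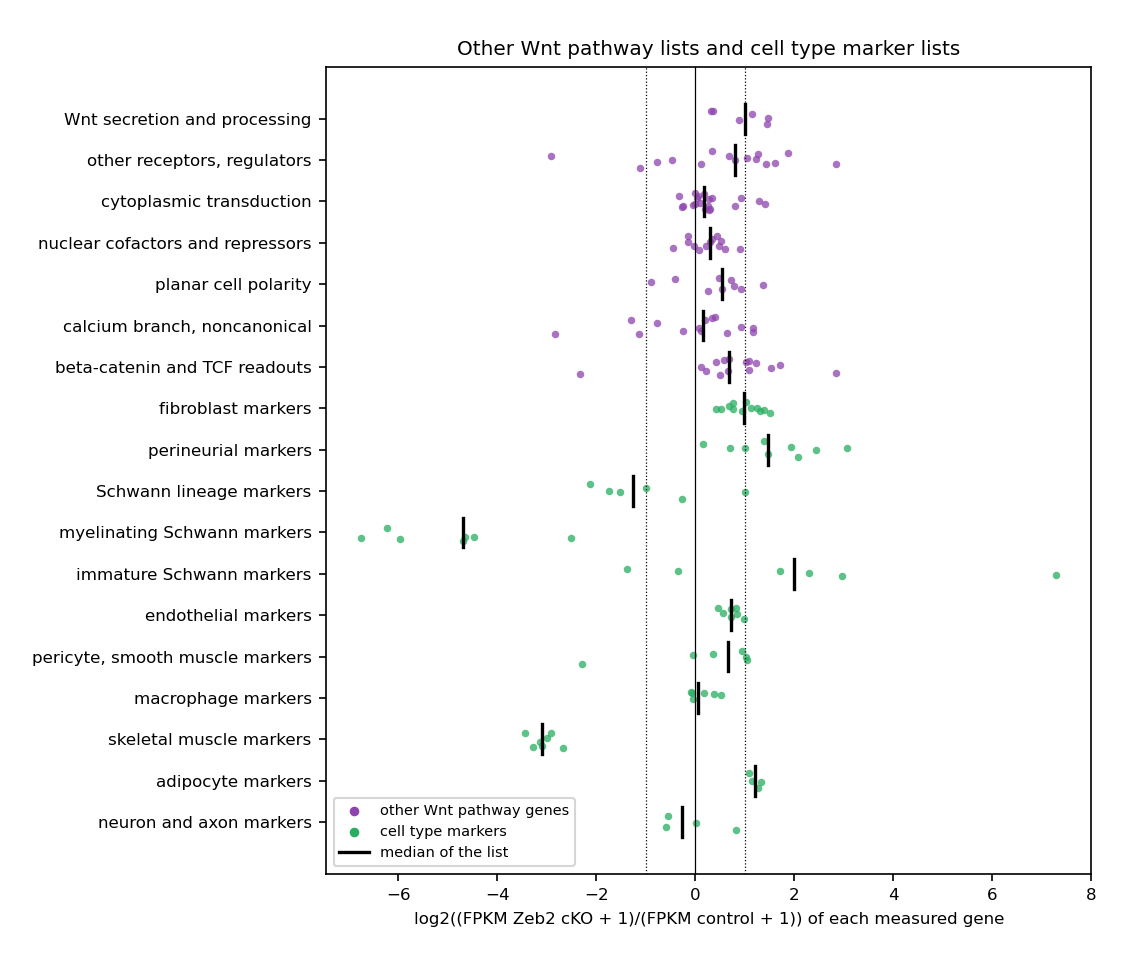
Log2 ratio of Zeb2 cKO over control with a pseudocount of 1 FPKM for each measured gene of 7 other Wnt pathway lists (purple) and 11 cell type marker lists (green), with the median of each list as a black bar and dotted lines at 2-fold; vertical scatter has no meaning. Cytoplasmic genes have a median of 0.19, fibroblast and perineurial markers medians of 0.99 and 1.47, and myelinating Schwann and skeletal muscle markers medians of -4.69 and -3.09.

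Markers of cell types of the nerve differed between the libraries as well. Over all measured genes, 8.59% were 2-fold higher and 6.25% lower, or 6.08% and 7.42% after rescaling to the median gene. Of 12 fibroblast markers, 6 were 2-fold higher and 0 lower, and they summed to 9461 FPKM in Zeb2 cKO nerve and 5717 FPKM in control nerve, a ratio of 1.65. Of 9 perineurial markers, 7 were 2-fold higher and 0 lower, summing to 295 FPKM in Zeb2 cKO nerve and 87.6 FPKM in control nerve, a ratio of 3.37. Endothelial markers summed to 229 FPKM in Zeb2 cKO nerve and 139 FPKM in control nerve (0 of 7 at 2-fold), adipocyte markers to 522 FPKM in Zeb2 cKO nerve and 215 FPKM in control nerve (4 of 4 higher), and macrophage markers to 48.8 FPKM in Zeb2 cKO nerve and 46.6 FPKM in control nerve (0 of 6). After rescaling, 4 fibroblast, 6 perineurial and 2 adipocyte markers were 2-fold higher.

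The Schwann cell markers went in both directions. The shares over all genes were those given above, 8.59% higher and 6.25% lower, or 6.08% and 7.42% after rescaling. Markers of the whole lineage summed to 397 FPKM in Zeb2 cKO nerve and 1033 FPKM in control nerve (3 of 6 lower, 1 higher). The 7 quantified markers of myelinating cells were all 2-fold lower, at 1018 FPKM in Zeb2 cKO nerve and 25629 FPKM in control nerve. Those of immature and nonmyelinating cells were 2-fold higher for 4 of 6 and lower for 1, at 482 FPKM in Zeb2 cKO nerve and 81.4 FPKM in control nerve. Most of the Zeb2 cKO sum was Gfap, at 300 FPKM in Zeb2 cKO nerve and 0.914 FPKM in control nerve. Cdh2, Ncam1 and Sox2 were the other higher ones. Ngfr was 2-fold lower, at 15.8 FPKM against 42.8 FPKM in control nerve. L1cam was lower within 2-fold, at 6.33 FPKM against 8.28 FPKM in control nerve. The 7 skeletal muscle markers were all 2-fold lower, at 647 FPKM in Zeb2 cKO nerve and 5542 FPKM in control nerve. Pericyte and smooth muscle markers summed to 255 FPKM in Zeb2 cKO nerve and 247 FPKM in control nerve (2 of 6 higher, 1 lower), and axonal markers to 32.0 FPKM in Zeb2 cKO nerve and 37.4 FPKM in control nerve (0 of 4 at 2-fold). After rescaling, 4 of the 6 lineage markers were 2-fold lower and 0 higher, and 0 pericyte and smooth muscle markers were higher. The other counts in this paragraph stayed the same. No quantified marker of the cell type lists was listed at 0 in either library. The part of these cell types in the Wnt family ratios was not tested.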

How the data were processed

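Sciatic nerve RNA was extracted with Trizol and made into Illumina TruSeq libraries, per the labels' protocols. Per the submitters' processing notes the authors used CASAVA, TopHat, Cufflinks and Cuffdiff on mouse build mm9, with versions not given. The authors deposited 1 table per group, with Cufflinks FPKM, length, a status and a coverage signal (mean read depth per base) for each of 28107 RefSeq transcripts, per the file headers. Because the labels attach a table to 2 samples at once, each was taken as 1 library of its group, without a sample number.

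FPKM was summed per symbol over rows with status OK in both tables (295 rows left out), giving 21965 genes. FPKM tables keep no whole counts, so no count model was used. Reads were estimated as coverage times length divided by 52.6 bases, the median of the first cluster of such products, and Clopper-Pearson intervals (95%) were carried to ratios. With a pseudocount of 1 FPKM, ratios of low genes come out smaller than plain folds. All of the 66 member rows had status OK. Of 180 list entries, 174 matched by symbol and 5 by RefSeq accession. Named were all members whose higher value reached 1 FPKM, list genes at 2-fold, and the 3 largest ratios of each pathway list; values under these limits were added after they were seen. Members and lists were chosen with earlier results of these data known. Promoters came from RefSeq (GRCm38.p6), with transcript starts from GENCODE, and the 1% limit on transcripts was set after the windows were seen; ratio, call and interval code was tested on simulated data. Python 3.11.15, pandas 2.3.3 and scipy 1.17.1 were used.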

Additional observations from a re-analysis of the deposited data

How the results depend on the processing

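No paired analysis was possible because each group is represented by 1 library here, and leave-one-out values could not be made. Rescaling to the median gene gave 6 of 32 members 2-fold higher in place of 13, against 784 of 12903 genes in place of 1109. Upper quartile scaling gave 7 of 32 members, against 855 of 12903 genes. Under these scalings the ratio of summed FPKM was 1.91 and 1.99 for the Wnt ligands, 1.93 and 2.02 for the frizzled receptors, and 1.45 and 1.52 for the antagonists, and that of the R-spondins was 2.17 after rescaling to the median gene. At a 3-fold threshold 2 of 32 members were higher, against 401 of 12903 genes, and 1 was lower, against 457 genes. At a mean of at least 5 FPKM 1 of 20 members was lower, against 618 of 9105 genes, since Wnt4 lies under that mean. Over all genes, the counts were 2537 higher and 1266 lower at 1.5-fold, 401 higher and 457 lower at 3-fold, and 739 higher at a mean of at least 5 FPKM. The median log2 ratio of all genes was 0.00065 after rescaling to the median gene, 0.055 with upper quartile scaling, 0.21 and 0.20 with pseudocounts of 0.1 and 0.5 FPKM, 0.032 without a filter and 0.15 at a mean of at least 5 FPKM. All 15 members called 2-fold apart kept that call with either pseudocount, with rows of every status, and with only the top row per symbol. The members' median stayed between 0.49 (no filter) and 1.06 (mean of at least 5 FPKM). Sfrp5 and Ctnnb1 changed sign after rescaling to the median gene. Ctnnb1 also changed sign with upper quartile scaling (log2 ratio of -0.10) and with only the top row per symbol (-0.14). Depth limits the low members most, such as Wnt4 with an interval of 3.12-fold to 13.8-fold lower. Where a value moved, the cause was not tested.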
